A study of Mus musculus with 5 samples.

Results

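The genes described are the subunits and assembly factors of the mouse proteasome, chosen by symbol: Psma to Psmg followed by a number, without Psmc3ip, a recombination factor that shares the prefix. The rule found 48 genes among the 56324 rows of the deposited table, and it used no measured value. Messenger RNA of male germ cells was sequenced in 5 libraries, 3 of spermatids, the haploid cells that reshape into sperm, and 2 of spermatocytes, the cells that pass through meiosis. All came from C57Bl/6 males aged 12 weeks, with no transgene or treatment in the labels, and both cell types were taken from the testis by sedimentation at unit gravity, which sorts cells mainly by size. Whether libraries of 1 cell type come from different males is not in the labels. The p-values therefore speak only to the spread among these 5 libraries, and that spread may be technical. In such bulk samples, fewer cells of a type and less RNA per cell cannot be told apart.

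The proteasome degrades proteins that carry ubiquitin chains. Its 20S core is a stack of alpha and beta rings with the protease sites inside, and the 19S cap, made of an ATPase base and a lid, recognises, unfolds and feeds in the substrate. Other activators can sit on the core in place of the cap, interferon-inducible beta subunits can replace the standard catalytic ones, and dedicated chaperones guide the assembly of core and base. Male germ cells of the mouse carry their own alpha subunit, Psma8, and use the activator Psme4 when histones are removed from the chromatin of spermatids.

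The promoters of 5 members whose levels differed most or that hold contrasting sequence are shown, because the members did not move as a block. They run from 250 bases before to 50 bases after the start annotated by RefSeq on GRCm38.p6, and capitals mark matches to the searched motifs on either strand. For Psma6, the start shown is that of the deposited gene model.
Psmd10 promoter, chrX:140956662-140956961, minus strand: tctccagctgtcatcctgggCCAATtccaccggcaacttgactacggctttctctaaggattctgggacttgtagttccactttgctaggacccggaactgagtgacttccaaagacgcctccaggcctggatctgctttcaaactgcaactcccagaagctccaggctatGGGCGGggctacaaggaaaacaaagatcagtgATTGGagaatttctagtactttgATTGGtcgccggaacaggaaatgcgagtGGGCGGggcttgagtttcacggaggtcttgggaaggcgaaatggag
Psma6 promoter, chr12:55398575-55398874, plus strand: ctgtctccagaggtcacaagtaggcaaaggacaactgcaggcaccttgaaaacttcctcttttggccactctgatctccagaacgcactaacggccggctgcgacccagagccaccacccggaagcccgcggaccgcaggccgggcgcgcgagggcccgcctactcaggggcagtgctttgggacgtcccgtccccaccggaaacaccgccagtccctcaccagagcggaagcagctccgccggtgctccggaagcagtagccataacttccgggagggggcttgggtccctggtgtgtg
Psmf1 promoter, chr2:151741261-151741560, minus strand: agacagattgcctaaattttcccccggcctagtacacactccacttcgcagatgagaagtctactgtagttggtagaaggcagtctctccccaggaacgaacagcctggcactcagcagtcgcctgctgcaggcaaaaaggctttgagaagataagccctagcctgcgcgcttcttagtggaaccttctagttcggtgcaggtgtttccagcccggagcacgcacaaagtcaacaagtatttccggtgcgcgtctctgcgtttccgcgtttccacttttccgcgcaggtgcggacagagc
Psme4 promoter, chr11:30771525-30771824, plus strand: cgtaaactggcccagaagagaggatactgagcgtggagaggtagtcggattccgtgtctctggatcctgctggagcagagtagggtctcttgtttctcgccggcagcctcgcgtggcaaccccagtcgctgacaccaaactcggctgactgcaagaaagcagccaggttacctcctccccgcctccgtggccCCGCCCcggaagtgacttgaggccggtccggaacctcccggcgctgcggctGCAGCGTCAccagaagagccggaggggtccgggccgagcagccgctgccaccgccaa
Psmg3 promoter, chr5:139826845-139827144, minus strand: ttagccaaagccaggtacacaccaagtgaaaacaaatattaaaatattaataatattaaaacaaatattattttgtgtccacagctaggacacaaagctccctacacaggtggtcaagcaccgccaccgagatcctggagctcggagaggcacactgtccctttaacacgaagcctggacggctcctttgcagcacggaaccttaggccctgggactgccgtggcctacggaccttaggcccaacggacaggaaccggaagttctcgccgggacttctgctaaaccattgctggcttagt
Psmd10, an X-linked chaperone gene, holds CCAAT and GC boxes, and Psme4 holds an antioxidant response element core and a GC box. None of the searched letters stood in the windows shown for Psma6, Psmf1 or Psmg3. RefSeq promoters were matched for 40 of the 48 members, 43 windows in all, and set beside 32851 windows of all genes. The GC box GGGCGG stood in 55.8% of member windows, against 35.7% of all windows. CCAAT stood in 32.6% against 37.4%, TATAAA in 9.30% against 13.6%, and TGACNNNGC, the antioxidant response element core that Nfe2l1 and its relatives read, in 14.0% against 12.4%. The full cyclic AMP response element TGACGTCA stood in 0 member windows, against 1.79% of all windows. Both strands were searched, and a match is a description of the letters, not a bound site.

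Of the 46 members tested, 16 were higher and 19 lower in spermatids than in spermatocytes, and 11 did not pass the test (limma on log2 of the normalized read count plus 1, adjusted p under 0.05 over all genes). These calls cover 76.1% of the tested members, against 77.1% of all 28370 genes tested. The share called higher was 34.8% of members against 40.6% of all genes, and the share called lower was 41.3% against 36.5%. At a fold change of at least 2, 8 members were higher, 17.4% of those tested against 33.2% of all genes, and 7 were lower, 15.2% against 28.7%. There was no overlap between the groups for 44 members, 95.7%, against 85.8% of all genes. With the deposited scaling, the number of calls was thus near the background, and fewer of the members' differences were large. A log2 fold change of at least 1 in size was seen in 32.6% of members and in 64.0% of all genes. The median log2 fold change was -0.16 over members, with quartiles of -0.71 and 0.47, and 0.07 over all genes, with quartiles of -1.36 and 1.97. No test compared members with other genes.

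**Figure D1:**
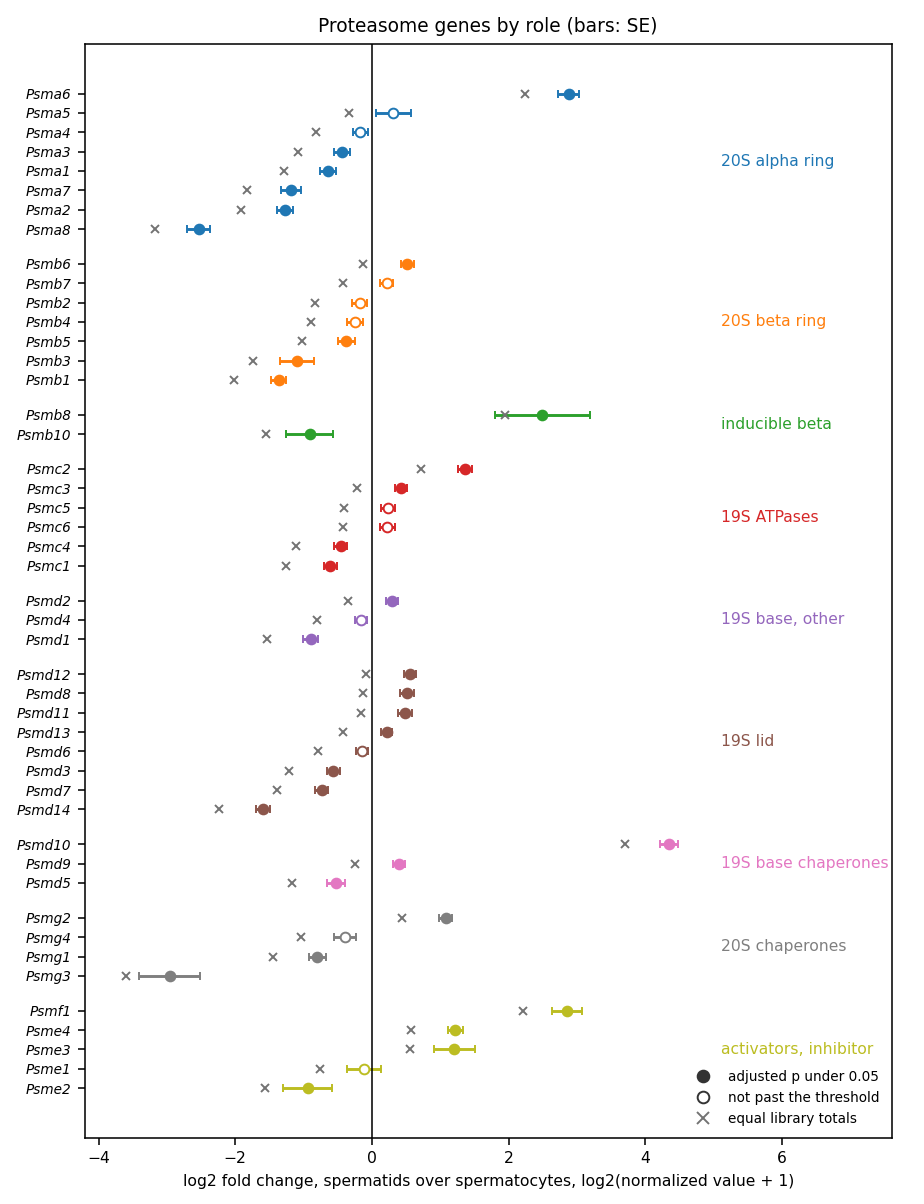
Log2 fold change of each tested member, spermatids over spermatocytes, by role in the complex, with bars for the SE and filled points for members that passed limma's test. Grey crosses give the log2 fold change with equal library totals. As deposited, each role holds points on both sides of 0, from Psmg3 at -2.96 to Psmd10 at 4.34. With equal totals, every cross of the beta ring, the other base genes and the lid lies below 0.

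The direction of the smaller changes depends on the scaling. The summed normalized counts of whole libraries were 80600836 to 96511989 in spermatids and 53899393 to 56855924 in spermatocytes, so rescaling to equal totals shifts the median log2 fold change of all genes from 0.07 to -0.57. With quantile normalization that median was -0.39. Across the deposited scaling and 4 others, 7 members were called higher in each (Psma6, Psmb8, Psmc2, Psmd10, Psme4, Psmf1 and Psmg2) and 16 were called lower in each. Another 8 members called higher as deposited turned sign with equal totals, and 0 of those called lower did. Equal totals lowered the log2 fold change of every member, so none called lower could turn sign. Quantile normalization lowered it for all but Psmb8, and TMM and recomputed DESeq2 factors moved it little. The 16 lower in each, beside 7 higher, therefore do not show that falls hold better than rises. With equal totals the counts were 7 higher and 31 lower of 46 members, beside 8647 higher and 14016 lower of all 28370 genes tested.

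The whole-series facts that bear on these genes are few. Recovered reads numbered 52784231 to 84361908 per library. All 12 spermatid markers tested were higher in spermatids, with sums of 880236 to 2278280 normalized counts against 18747 to 24676 in spermatocytes, and spermatid replicate 1 held 2.52 times the mean of the others. Of 10 spermatocyte markers, 6 were lower and 1 higher in spermatids (sums of 209135 to 221032 against 230984 to 253529 in spermatocytes). Most of these sums came from Hspa2, which did not pass (170038, 187749 and 182312 in spermatids, 179803 and 163627 in spermatocytes). The 6 that were lower had log2 fold changes from -1.24 (Spo11) to -5.89 (Pou5f2), and Msh4, the higher one, had 0.63. All 12 Sertoli cell markers and all 6 Leydig cell markers tested were lower in spermatids, with Sertoli sums of 2723 to 3764 against 66658 to 86659 in spermatocytes and Leydig sums of 135 to 328 against 2738 to 3280.2. Of 11 macrophage and lymphoid markers, 9 were higher and 2 lower (2309 to 4454 in spermatids, 2386 to 3017 in spermatocytes), and of 11 myoid and endothelial rows 7 were higher and 1 lower (3648 to 4645 against 1005 to 1128). Of 9 spermatogonial markers 4 were higher and 2 lower (33730.5 to 37819.5 against 34810 to 39011). Most of these sums came from Dmrtb1, which did not pass (31765, 35334 and 31768 in spermatids, 34125 and 29917 in spermatocytes). No marker was at 0 in all libraries of a group, and the part of these other cell types in the results below was not tested.

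In the alpha ring, which forms the gate of the core, the genes moved in opposite directions. Of its 8 genes, 1 was higher, 5 were lower and 2 did not pass, with a median log2 fold change of -0.54. The gene that rose was Psma6, a standard subunit of the ring. It had 33417, 26932 and 23290.2 normalized counts in spermatids 1 to 3, against 3852 and 3646 in spermatocytes 1 and 2. Every spermatid library was above both spermatocyte libraries, and the mean was 7.44-fold higher. Its log2 fold change was 2.88 ± 0.15 (SE; limma adjusted p = 5.9e-06).

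Psma8, the germ-cell alpha subunit that takes the place of Psma7, had 1569, 1143 and 1147 normalized counts in spermatids, against 7943 and 6839 in spermatocytes. The groups did not overlap, and the spermatocyte mean was 5.75-fold higher than the spermatid mean (log2 fold change -2.53 ± 0.17, limma adjusted p = 1.5e-05). Psma7, its standard counterpart, had 392, 338 and 409.8 counts in spermatids, against 805 and 919 in spermatocytes. All 3 spermatid libraries were again below both spermatocyte libraries (log2 fold change -1.18 ± 0.15, limma adjusted p = 0.00032). So both genes of the pair fell, with the larger fold change for Psma8. Per transcript length, Psma8 made up 73.2%, 69.8% and 65.7% of the pair's summed level in spermatids, against 87.1% and 83.6% in spermatocytes. Psma8 remained the larger of the pair in each library on that scale. The log2 ratio of Psma8 to Psma7, which depends on the scaling between libraries only through the pseudocount, was 1.74 ± 0.26 in spermatids (SD, n = 3) and 3.10 ± 0.29 in spermatocytes (SD, n = 2). The groups did not overlap, but with 3 libraries against 2 the smallest two-sided p of an exact permutation test is 0.2, which this ratio reached, 0.23 after adjustment over the 8 pairs compared.

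Among the other alpha genes, Psma2 fell by 1.27 on the log2 scale, Psma1 by 0.64 and Psma3 by 0.44 (limma adjusted p = 7.5e-05, 0.0019 and 0.013). The call of Psma3 was lost without either spermatocyte library (adjusted p 0.064 and 0.068). Psma4 did not pass, with a log2 fold change of -0.17 (limma adjusted p = 0.19), but was called lower with equal totals (-0.81, adjusted p 0.00064). Psma5 had 305, 435 and 555 counts in spermatids, against 319.9 and 357 in spermatocytes. Its groups overlapped, the only pair of groups in the core rings to do so (log2 fold change 0.31, limma adjusted p = 0.30). Without spermatid replicate 1 that log2 fold change was 0.54 and passed (adjusted p 0.027), and with equal totals it was -0.33.

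The beta ring, which holds the protease sites, had 1 gene higher, 3 lower and 3 that did not pass among 7, with a median log2 fold change of -0.25. Psmb1, a structural subunit without a protease site, fell most, with 2367, 2169.5 and 2408 normalized counts in spermatids, against 6379 and 5577 in spermatocytes. The groups were far apart beside their spread (log2 fold change -1.37 ± 0.11, limma adjusted p = 3.2e-05). Psmb3, another structural subunit, fell by 1.09 (limma adjusted p = 0.0055), but not past the threshold without either spermatocyte library (adjusted p 0.050 and 0.058). Psmb2 and Psmb4 had log2 fold changes of -0.18 and -0.25 and did not pass (limma adjusted p = 0.18 and 0.092). Both were called lower with equal totals, at -0.83 and -0.89 (adjusted p 0.00045 and 0.0024).

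The genes of the 3 standard protease sites moved little by the deposited scaling. Psmb5, the chymotrypsin-like subunit, had 2212, 2833 and 2698 normalized counts in spermatids, against 3239 and 3413 in spermatocytes. The spermatid libraries were all lower, by 0.37 ± 0.13 on the log2 scale (limma adjusted p = 0.033). That call was lost in 6 of 16 alternatives: without either spermatocyte library (adjusted p 0.11 and 0.17), without spermatid replicate 3 (0.054), with no filter (0.053), with TMM (0.051) and without the eBayes trend (0.098). The fall of Psmb5 was larger with equal totals (-1.02, limma adjusted p = 0.0018) and with quantile normalization (-0.95). Psmb6, the caspase-like subunit, had 12789, 13907 and 12420.1 counts in spermatids, against 9347 and 8838 in spermatocytes. The spermatid libraries were all higher as deposited, by 0.52 ± 0.09 on the log2 scale (limma adjusted p = 0.0016), a difference that turned to -0.13 with equal totals and -0.22 with quantile normalization. Psmb7, the trypsin-like subunit, had 7713, 8384 and 7896 counts in spermatids, against 7354 and 6449 in spermatocytes. Its groups did not overlap, but its log2 fold change of 0.21 did not pass (limma adjusted p = 0.080), and it was called lower with equal totals (-0.43, adjusted p 0.015).

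Per transcript length, the inducible and tissue-specific beta genes were among the lowest of the 48 members in both cell types, at ranks of 44 and 46 to 48. Psmb8, which interferon induces to replace Psmb5, had 24.8, 35.7 and 26.2 normalized counts in spermatids, from 16, 36 and 25 reads, against 10.8 and 1.34 in spermatocytes, from 10 and 2 reads. The spermatid libraries were all higher (log2 fold change 2.49 ± 0.69, limma adjusted p = 0.014), and the spermatocyte libraries differed widely from each other. The log2 fold change was 3.66 without spermatocyte replicate 1 and 1.33 without spermatocyte replicate 2 (adjusted p 0.0029 and 0.049). Psmb10, which replaces Psmb7, went the other way, with 32.6, 52.5 and 52.4 counts in spermatids, against 70.0 and 103 in spermatocytes. It was lower in each spermatid library (log2 fold change -0.91 ± 0.34, limma adjusted p = 0.045), a call lost in each fit that left out 1 library (adjusted p 0.059 to 0.26), with TMM (0.057) and with no filter (0.058).

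Psmb9, which replaces Psmb6, was under the minimum mean for the test, with 6.2, 15.9 and 17.8 counts in spermatids, against 3.23 and 3.35 in spermatocytes. Psmb11, the thymus subunit that can replace Psmb5, was also under it, with 12.4, 10.9 and 5.24 counts in spermatids, against 3.23 and 2.68 in spermatocytes. Neither gene exceeded 17 reads in a library. With no filter on low values, Psmb9 passed (log2 fold change 1.62 ± 0.53, limma adjusted p = 0.044) and Psmb11 did not (1.34 ± 0.47, limma adjusted p = 0.053). Per transcript length, the inducible subunits made up at most 1.40% of any pair with the standard subunit they replace, reached by Psmb10 in spermatocyte replicate 2. The macrophage and lymphoid markers given above were higher in spermatids for 9 of 11, with sums that overlapped between the groups (2309, 4454 and 3649 in spermatids, 2386 and 3017 in spermatocytes). Most of the spermatocyte sums came from Mrc1, a macrophage receptor gene that was lower in spermatids, with 234, 577 and 472 counts in spermatids against 1704 and 2369 in spermatocytes. The markers that rose did so by 3.10-fold (Cd14) to 40.9-fold (C1qb), with Csf1r, the macrophage growth factor receptor, 29.6-fold higher in spermatids; these 4 were picked out after their values were seen. The markers' part in the values of Psmb8 to Psmb10 was not tested.

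**Figure D2:**
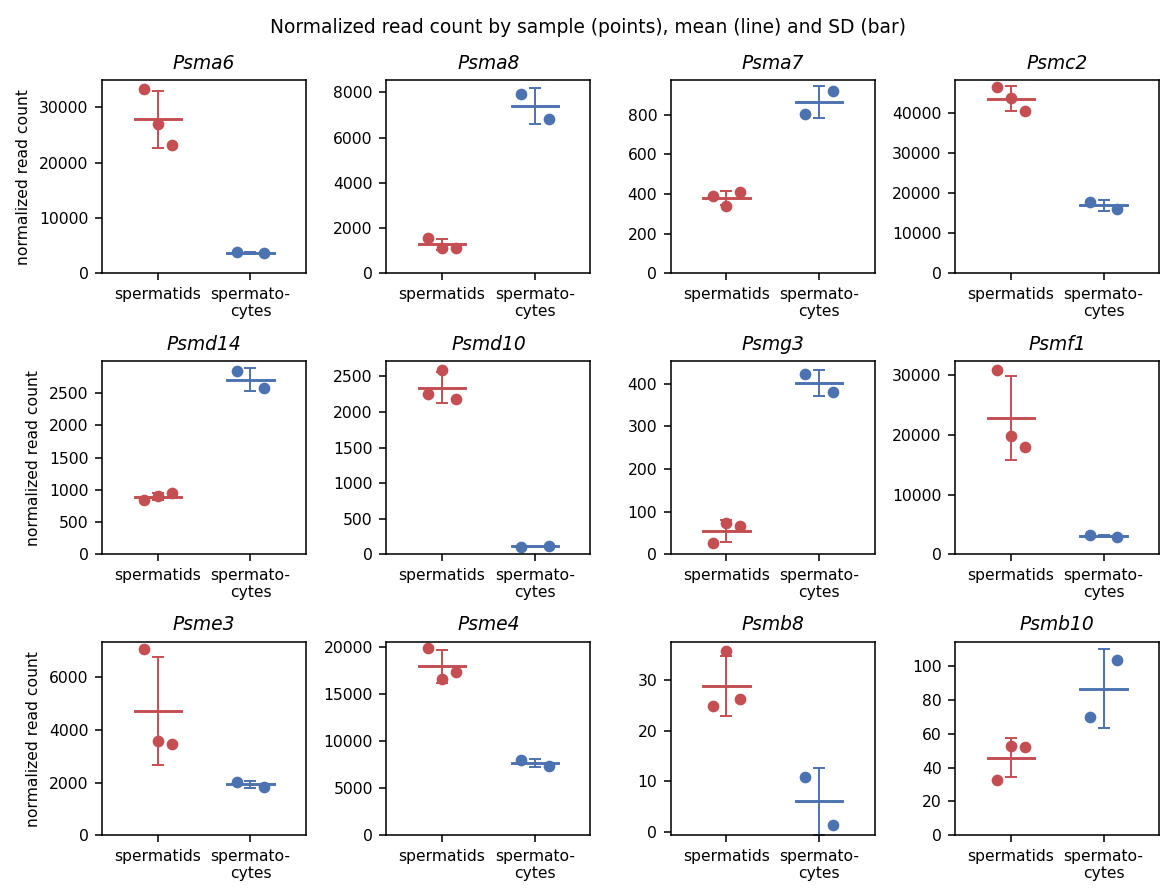
Normalized read count of 12 members in every library, with spermatids to the left of spermatocytes, the mean as a line and the SD as a bar. Each panel has its own axis; the groups do not overlap in any panel, Psma6, Psmc2, Psmd10, Psme3, Psme4, Psmf1 and Psmb8 being higher in spermatids and Psma7, Psma8, Psmd14, Psmg3 and Psmb10 lower.

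The ATPase genes of the 19S base, whose products unfold the substrate, had 2 members higher, 2 lower and 2 that did not pass. Psmc2 had 46425, 43485 and 40292 normalized counts in spermatids, against 17826 and 15966 in spermatocytes. The spermatid libraries were all higher, 2.57-fold on average (log2 fold change 1.36 ± 0.10, limma adjusted p = 2.6e-05). Psmc1 had 3555, 3677 and 3479 counts in spermatids, against 5668 and 5227 in spermatocytes. It was lower in each spermatid library (log2 fold change -0.61 ± 0.09, limma adjusted p = 0.00071). Psmc3 was higher by 0.42 (limma adjusted p = 0.0039) as deposited and lower with equal totals, at -0.23, and its call was lost without spermatocyte replicate 2 (adjusted p 0.064). Psmc4 fell by 0.46 (limma adjusted p = 0.0031). Psmc5 and Psmc6 had log2 fold changes of 0.23 and 0.22 and did not pass (limma adjusted p = 0.067 and 0.11), and both were called lower with equal totals, at -0.41 and -0.42 (adjusted p 0.029 and 0.0057). Within 1 ring of ATPases, then, Psmc2 and Psmc1 moved apart while each group stayed tight.

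The other base genes are the scaffolds Psmd1 and Psmd2 and the ubiquitin receptor Psmd4. Psmd2 had 40220.4, 45622 and 44290.4 normalized counts in spermatids, against 35225 and 35416 in spermatocytes. The difference of 0.29 ± 0.09 on the log2 scale (limma adjusted p = 0.021) was called in the opposite direction with equal totals (-0.35, adjusted p 0.044) and with quantile normalization (-0.44, adjusted p 0.017). It lost its call without the eBayes trend (adjusted p 0.10) and without either spermatocyte library (adjusted p 0.12 in both). It also lost it without spermatid replicate 2 (0.071) or 3 (0.065). Psmd1 had 1181, 1364 and 1273 counts in spermatids, against 2393 and 2337 in spermatocytes. It was lower in all 3 spermatid libraries (log2 fold change -0.90 ± 0.11, limma adjusted p = 0.00026). Psmd4 had a log2 fold change of -0.16 and did not pass (limma adjusted p = 0.15), but was called lower with equal totals (-0.81, adjusted p 0.00028).

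In the lid, 4 of 8 genes were higher, 3 lower and 1 did not pass, with a median log2 fold change of 0.04. Psmd14, the deubiquitinase that removes the ubiquitin chain before degradation, had 849.6, 898 and 944 normalized counts in spermatids, against 2839 and 2581 in spermatocytes. It was 3.02-fold higher on average in spermatocytes (log2 fold change -1.59 ± 0.11, limma adjusted p = 1.8e-05). Psmd7, the partner with which Psmd14 forms a dimer, fell by 0.74, and Psmd3, a scaffold of the lid, by 0.57 (limma adjusted p = 0.00043 and 0.0011). The 4 that were higher did not hold under all scalings. Psmd12, the largest of them, had 7290.0, 7504 and 7148 counts in spermatids, against 5262 and 4694 in spermatocytes. Its log2 fold change of 0.56 ± 0.09 (limma adjusted p = 0.0012) was -0.09 with equal totals. Psmd8, Psmd11 and Psmd13 were higher by 0.51, 0.49 and 0.22 as deposited (limma adjusted p = 0.0040, 0.0037 and 0.049) and lower with equal totals, at -0.13, -0.16 and -0.43. The call of Psmd13 did not hold in 10 of 16 alternatives. It was called lower with equal totals (adjusted p 0.012) and with quantile normalization (-0.46, adjusted p 0.0033). It was lost without either spermatocyte library (adjusted p 0.092 and 0.19), without spermatid replicate 2 (0.11) or 3 (0.099), with a pseudocount of 10 (0.050), with recomputed DESeq2 factors (0.053), without the eBayes trend (0.18) and in edgeR (0.071). Psmd8 lost its call without spermatocyte replicate 2 (adjusted p 0.054) and was called lower with quantile normalization (-0.25, adjusted p 0.014). Psmd6 had a log2 fold change of -0.15 and did not pass (limma adjusted p = 0.16), but was called lower with equal totals (-0.79, adjusted p 0.0011).

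Set side by side, the rings of the core had 2 genes higher and 8 lower of 15, with a median log2 fold change of -0.37, and the base and lid had 7 higher and 6 lower of 17, with a median of 0.22. Of these 7, Psmc2 alone stayed higher under every scaling tried. With equal totals both parts had 1 gene higher and 12 lower, with medians of -1.02 in the core and -0.43 in the base and lid, so the contrast in counts rests on the scaling. Without spermatocyte replicate 1 or 2, the core had 5 genes lower. The base and lid had 3 higher without spermatocyte replicate 2, and the core had 4 higher without spermatid replicate 1. The difference between core and cap was not tested.

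The chaperones held the member with the largest rise and the member with the largest fall. Psmd10, known as gankyrin and encoded on the X chromosome, the only X-linked member, helps the ATPases of the base to assemble. It had 2253, 2591 and 2187 normalized counts in spermatids, against 111 and 118 in spermatocytes. The groups lay 20.5-fold apart (log2 fold change 4.34 ± 0.13, limma adjusted p = 6.2e-07), and the log2 fold change stayed between 3.70 and 4.39 under all 16 alternatives. The other base chaperones were closer to equal. Psmd9 was higher by 0.40 as deposited (limma adjusted p = 0.0051) and lower with equal totals, at -0.25. Psmd5 had 527, 607 and 604 counts in spermatids, against 795 and 875 in spermatocytes. It was lower in each spermatid library (log2 fold change -0.53 ± 0.13, limma adjusted p = 0.0086), a call lost without spermatocyte replicate 2 (adjusted p 0.065).

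The 4 chaperones of core assembly work as 2 dimers, Psmg1 with Psmg2 and Psmg3 with Psmg4, which act on the alpha ring. Psmg2 had 3447, 3880.2 and 3625 normalized counts in spermatids, against 1707 and 1744 in spermatocytes. It was higher in each spermatid library (log2 fold change 1.08 ± 0.10, limma adjusted p = 6.5e-05). Its partner Psmg1 had 837, 1019 and 943 counts in spermatids, against 1606 and 1635 in spermatocytes. So it was lower in each (log2 fold change -0.80 ± 0.12, limma adjusted p = 0.00086), and the genes of this dimer moved in opposite directions. Psmg3 had 26.4, 74.3 and 66.0 counts in spermatids, against 423 and 380.2 in spermatocytes. It was 7.23-fold higher on average in spermatocytes (log2 fold change -2.96 ± 0.45, limma adjusted p = 0.00081), and spermatid replicate 1 was lowest. Its partner Psmg4 had a log2 fold change of -0.40 and did not pass (limma adjusted p = 0.063). With equal totals Psmg4 was called lower (-1.04, adjusted p 0.0015).

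Of the 4 alternative activators and the inhibitor Psmf1, 3 were higher, 1 was lower and 1 did not pass. Psmf1, which binds the core and was described as its inhibitor, had 30868, 19714 and 17965 normalized counts in spermatids, against 3174 and 2984 in spermatocytes. The spermatid libraries were all higher, 7.42-fold on average (log2 fold change 2.85 ± 0.22, limma adjusted p = 3.5e-05), and replicate 1 was 1.64 times the mean of the other two. Psme4, the activator tied to histone degradation in mouse spermatids, had 19861, 16546 and 17327 counts in spermatids, against 7978 and 7368 in spermatocytes. It was higher in each spermatid library, 2.33-fold on average (log2 fold change 1.22 ± 0.11, limma adjusted p = 5.8e-05).

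Psme3, a nuclear activator that works without ubiquitin, had 7049.7, 3588 and 3455 normalized counts in spermatids, against 2024 and 1831 in spermatocytes. All 3 spermatid libraries were higher, with replicate 1 at 2.0 times the mean of the other two (log2 fold change 1.20 ± 0.30, limma adjusted p = 0.0093). The call was lost without either spermatocyte library (adjusted p 0.069 and 0.094), with equal totals (0.064) and with quantile normalization (0.052). The ratio of Psme4 to Psme3 within a library averaged 2.01 ± 0.45 on the log2 scale in spermatids (SD, n = 3) and 1.99 ± 0.02 in spermatocytes (SD, n = 2). Spermatid replicate 1, at 1.49, was below the spermatocyte values and the other two were above them, so the groups overlapped (exact permutation p = 1).

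The interferon-inducible activator of Psme1 and Psme2 was low. Psme1 had 104, 108 and 77.6 normalized counts in spermatids, against 103 and 104 in spermatocytes. The groups overlapped (log2 fold change -0.12 ± 0.24, limma adjusted p = 0.68), but Psme1 was called lower with equal totals (-0.76, adjusted p 0.027). Psme2, its partner subunit, had 15.5, 25.8 and 17.8 counts in spermatids, against 35.5 and 40.2 in spermatocytes. It was lower in each spermatid library (log2 fold change -0.94 ± 0.36, limma adjusted p = 0.047). That call was lost in 7 of 15 alternatives: without either spermatocyte library (adjusted p 0.11 and 0.17), without spermatid replicate 1 (0.080) or 3 (0.10), with a pseudocount of 0.5 (0.051), with TMM (0.053) and in DESeq2 (0.085). The log2 ratios to Psme3 fell by 1.32 for Psme1 and by 2.14 for Psme2, with no overlap between the groups (exact permutation p = 0.2 each, the smallest possible).

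**Figure D3:**
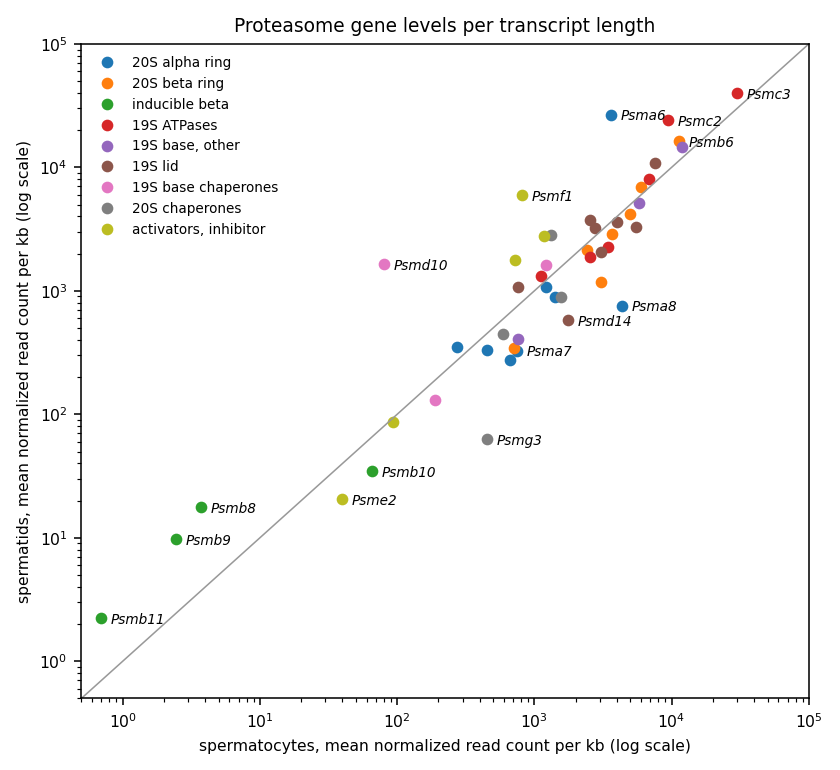
Normalized count per kilobase of transcript for each member, spermatids on the vertical and spermatocytes on the horizontal log axis, coloured by role, with a line of equal levels. Psmc3 is highest in both cell types, and Psma6, Psmf1 and Psmd10 lie furthest above the line while Psma8 and Psmg3 lie furthest below it.

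Subunits that stand in fixed proportion in the particle had unequal messenger levels. Per kilobase of the longest coding transcript in GENCODE vM21, the ring genes ranged in spermatids from 275 normalized counts for Psma2 to 26756 for Psma6, a 97.2-fold span, and in spermatocytes from 273 for Psma5 to 11394 for Psmb6, a 41.7-fold span. The base and lid genes spanned 97.8-fold in spermatids and 39.4-fold in spermatocytes. Psmc3 had the highest level per kilobase in both, 39982 in spermatids and 29921 in spermatocytes. By this measure Psma6 ranked 2 of 48 in spermatids and 14 in spermatocytes, Psmf1 ranked 9 and 30, and Psma8 ranked 32 and 11. These levels rest on 1 transcript per gene, so a gene that mainly uses a shorter one, as could hold for Psma2 with 2911 bases, is placed too low.

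Taken against the members' own median in the same library, which a scaling factor between libraries alters only through the pseudocount, Psma6 stood 3.53, 3.23 and 3.12 log2 units above it in spermatids, against 0.36 and 0.39 in spermatocytes. Psma8 stood below the median in spermatids, at -0.89, -1.33 and -1.23, and above it in spermatocytes, at 1.40 and 1.30. Psmb6, whose sign turned between scalings, stood 2.14, 2.28 and 2.21 above the median in spermatids, against 1.64 and 1.67 in spermatocytes. Relative to the other proteasome genes, Psmb6 was thus higher in each spermatid library than in either spermatocyte library.

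The 48 genes together took 0.400%, 0.441% and 0.434% of all reads in spermatids, against 0.481% and 0.475% in spermatocytes. The spermatid libraries were all lower (0.425% ± 0.022, SD, n = 3, against 0.478% ± 0.0042, SD, n = 2), and so they were after the 100 rows with the highest mean were left out of the library total, at a difference of -0.063 percentage points. By the deposited scaling the summed counts went the other way, 386429, 368427 and 349962 in spermatids against 273297 and 255846 in spermatocytes. Psmc3 alone made up 19.7% of the summed mean in spermatids and 20.6% in spermatocytes. Psma6 made up 7.57% in spermatids, where it ranked after Psmc3, Psmc2 and Psmd2, and it was not among the top 4 in spermatocytes.

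**Figure D4:**
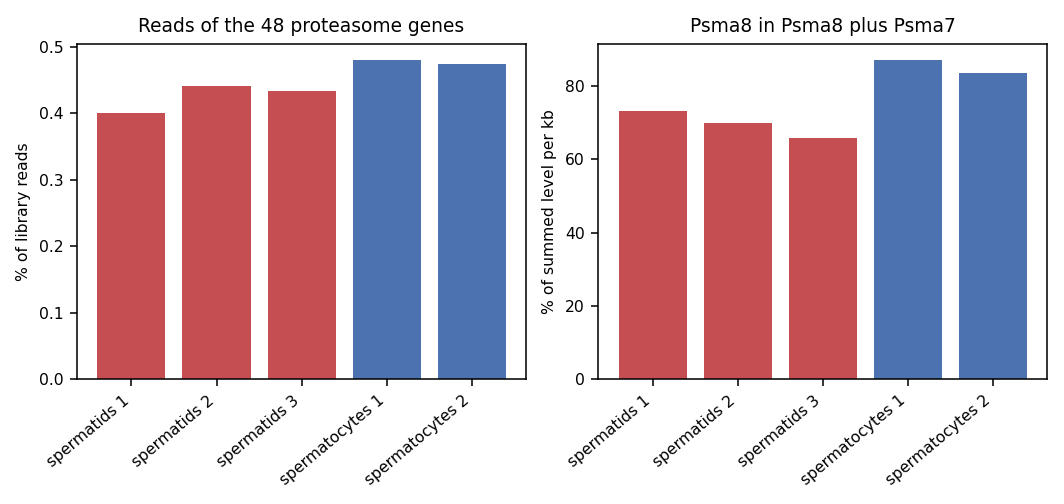
Left, reads of the 48 genes as a percentage of each library, and right, Psma8 as a percentage of the summed level per kilobase of Psma8 and Psma7, with spermatids to the left of spermatocytes. In both panels each of the 3 spermatid bars is lower than each of the 2 spermatocyte bars.

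Some values can hold reads of other genes. The sources used here name neither the read counter nor its strand setting, and 16 of the 48 members overlap another row of the table. The highest such rows lay over Psmd13, Psmc3, Psma2 and Psmd11, with means over the 5 libraries of 3433, 1127, 1053 and 915 normalized counts. Psma2 itself had means of 802 in spermatids and 1928 in spermatocytes, so its values are the most exposed of these. For 8 members (Psma3, Psma4, Psma5, Psmb3, Psmb5, Psmc1, Psmd11 and Psmd2) an annotated pseudogene is at least 95% identical over at least 200 bases, so their reads could be split or shared. Another 6 members (Psmb7, Psmb9, Psmd1, Psmd13, Psme2 and Psmg3) match an annotated gene that is no pseudogene to the same extent, among them Psmg3, with the largest fall, which matches Gm26938, and Psme2, which matches Psme2b. Psma6, Psma7, Psma8, Psmc2, Psmd10 and Psme4 have neither an overlapping row nor such a copy.

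Genes around the proteasome were also called in both directions, as were genes at large: of all genes tested, 40.6% were called higher and 36.5% lower. The lists that follow are short and were not tested against those shares. Of 13 tested genes for other components and assembly factors, 5 were higher and 3 lower. The counts of this list and the next are given at the deposited scaling alone, and the direction of small changes can depend on it. Txnl1, a thioredoxin-like protein bound to the cap, rose most, with 2470, 2636 and 2211 normalized counts in spermatids, against 1246 and 1357 in spermatocytes (log2 fold change 0.90, limma adjusted p = 0.00036). Zfand2a, a stress-induced partner of the cap, had the largest fall of the list and fell by 1.90 on the log2 scale (limma adjusted p = 0.00059). Pomp, the chaperone that completes the core, had 1105, 970.3 and 1050.1 counts in spermatids, against 3890 and 3771 in spermatocytes. It was lower in each spermatid library (log2 fold change -1.88, limma adjusted p = 7.1e-06), and was picked out after its values were seen.

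Of 11 tested shuttle receptors, which carry ubiquitinated proteins to the cap, 7 were higher and 3 lower. Ddi1, a receptor with a retroviral protease fold, had 33763, 28612 and 25483 normalized counts in spermatids, against 414 and 314 in spermatocytes (log2 fold change 6.33, limma adjusted p = 4.9e-07). Ubqln2, a ubiquilin, had 130, 160 and 113 counts in spermatids, against 853 and 1460 in spermatocytes (log2 fold change -3.06, limma adjusted p = 6e-05). Neither pair of groups overlapped. Of 8 genes that control proteasome transcription, 3 were higher and 2 lower. Ngly1, the glycanase that activates Nfe2l1, rose by 2.41 on the log2 scale, and Nfe2l3, a relative of Nfe2l1, fell by 1.89 (limma adjusted p = 1.6e-06 and 0.00081). Nfe2l1 itself, an activator of proteasome genes, was lower, with 3425, 3596 and 3353 counts in spermatids against 6589 and 6855 in spermatocytes (log2 fold change -0.96, limma adjusted p = 6.8e-05). Nfe2l2, another relative, went the other way, with 636, 693 and 663 counts in spermatids against 134 and 152 in spermatocytes (log2 fold change 2.21, limma adjusted p = 1.6e-05). Both Nfe2l1 and Nfe2l2 were picked out after their values were seen. Of the 4 ubiquitin genes 3 were higher and 1 lower, the lower being Rps27a, a fusion of ubiquitin with a ribosomal protein, with a log2 fold change of -1.66 (limma adjusted p = 6.4e-05). Of 12 genes for antigen processing and interferon response, 6 were higher and 3 lower. Cd74, the invariant chain, rose by 4.41 on the log2 scale (limma adjusted p = 4.6e-05).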

How the data were processed

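Polyadenylated RNA of mouse spermatids and spermatocytes was made into stranded libraries, per the labels' protocols. The values used are a deposited signal, read counts per gene that the authors had divided by 1 size factor for each library (per the file headers). DESeq, STAR 2.4.0, SAMtools, Picard, FastQC and mm10 are named, per the submitters' processing notes. How reads of several genes were treated is not given in the sources used here.

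Within 0.001, 100% of values were whole multiples of the value of 1 read, which gave back whole reads. Groups came from the cell type labels, and replicate numbers follow accession order and pair no libraries. The table held 0 columns of other samples. The members, gene lists, tests and the rule for named genes were chosen with earlier results of these data known.

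Values plus 1 were taken to log2 and tested with limma 3.58.1 in R 4.3.3 (eBayes, with a trend over the mean), for the 28370 genes with a mean of at least 10 over the 5 libraries. Benjamini-Hochberg adjustment ran over all of them. Log2 fold changes on this scale understate those of low genes, and an n-fold difference is a ratio of group means. Of each role, the members with the largest change in each direction past the threshold were given with every value, as were the inducible beta subunits, the standard catalytic subunits, Psma7, Psma8, the activators and Psmf1. Of each companion list, the gene with the largest change in each direction was named, and some that this rule selects are not reported here. Ratios of paralogs within a library were compared by exact two-sided permutation tests. As alternatives, the pseudocount, the filter, the scaling and the trend were changed, each library was left out, and edgeR 4.0.16 (quasi-likelihood) and DESeq2 1.42.0 were run on the recovered reads. The main limma fit alone was also run on simulated data, in which most genes were unchanged. That run did not cover edgeR, DESeq2 or the other alternatives, and it could not judge the scaling. Transcript lengths were those of the longest coding transcript of GENCODE vM21, copies were found with blastn 2.17.0, and promoters came from RefSeq tables on GRCm38.p6. Python 3.11.15 with numpy 2.4.6, pandas 2.3.3, scipy 1.17.1 and matplotlib 3.10.9 made summaries and plots.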

Additional observations from a re-analysis of the deposited data

How the results depend on the processing

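Of the 35 members called, 20 kept their direction and their call, and 27 their sign, under every alternative that tested them. These were 16 alternatives, but 15 for Psmb8, Psmb10 and Psme2, which a minimum mean of 100 left out. Rescaling to equal totals gave 7 members higher and 31 lower in spermatids, with a median log2 fold change of -0.81, and quantile normalization gave 7 and 31 with a median of -0.75, beside 16, 19 and -0.16 as deposited. The normalized totals given above were larger in spermatids, so equal totals lowered the median log2 fold change of all genes from 0.07 to -0.57. Why those totals differ, and what moved the values with quantile normalization, was not tested. With equal totals the log2 fold change turned to -0.13 for Psmb6, -0.16 for Psmd11, -0.41 for Psmc5, -0.089 for Psmd12, -0.42 for Psmc6, -0.35 for Psmd2, -0.23 for Psmc3, -0.43 for Psmb7, -0.33 for Psma5, -0.25 for Psmd9, -0.43 for Psmd13 and -0.13 for Psmd8. With quantile normalization it turned to -0.22 for Psmb6, -0.049 for Psmd11, -0.49 for Psmc5, -0.12 for Psmd12, -0.33 for Psmc6, -0.44 for Psmd2, -0.18 for Psmc3, -0.51 for Psmb7, -0.11 for Psma5, -0.19 for Psmd9, -0.46 for Psmd13 and -0.25 for Psmd8. TMM scaling gave 18 higher and 16 lower, edgeR 15 and 19, and DESeq2 16 and 18. Of all 28370 genes tested, 8647 were higher and 14016 lower with equal totals, and 9575 and 13198 with quantile normalization. These all-gene counts were 11626 and 10222 with TMM, 11537 and 10394 in edgeR, and 11527 and 10255 in DESeq2, beside 11512 and 10359 as deposited. Leaving out 1 library gave 11 to 19 members higher, 13 to 18 lower, a median of -0.21 to -0.13, and a difference in the members' share of reads of -0.060 to -0.040 percentage points. The difference in the log2 ratio of Psme4 to Psme3 ran from -0.14 to 0.27, and the log2 fold change of Psme1, -0.12 over all libraries, was 0.031 without spermatid replicate 3. Members that passed only in an alternative included Psmc5 and Psmb7, with TMM scaling (0.25 and 0.23) and without spermatid replicate 1 (0.29 and 0.24), and they passed as lower with equal totals and with quantile normalization. With 1 spermatocyte library left, limma takes its spread from the spermatids. No paired analysis was possible because the labels do not say whether any spermatid and spermatocyte libraries come from the same males. Depth limits Psmb8, Psmb9, Psmb11 and Psme2, which rest on few reads, and with 3 libraries against 2 no exact test can pass.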
